A study of Homo sapiens with 4 samples.

Results

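The genes that carry a cell through G2 phase and mitosis were followed in OCI-AML3, an established line from human acute myeloid leukaemia that carries the cytoplasmic NPM1 mutation (NPM1c+). The 49 genes are a list of names, drawn up with earlier results of these data known though with no value in its rule, and cover cyclins, kinases, spindle, kinetochore, cytokinesis and condensin genes. All 49 were found among the 67062 rows of the deposited count table, and all 49 passed the filter on low counts. The cells had been transduced with the retroviral vector pMSCV-PIG, either carrying the long noncoding RNA LONA behind an RNA polymerase II promoter (PIG-LONA) or without an insert (PIG-EMPTY). Both vectors also express a puromycin marker and GFP from the PGK promoter, so the control cells carry these as well, and all cultures were sorted for GFP. Each group has 2 libraries of poly(A) RNA from 2 independent transductions of this 1 cell line. No row was matched to LONA by name, so the labels were not checked against the expressed transcript.

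Entry into mitosis is driven by CDK1, a kinase that needs cyclin A or cyclin B to be active and is switched on by CDC25 phosphatases. Kinetochores tie chromosomes to the spindle, the spindle checkpoint holds back the anaphase promoting complex until all are attached, and that complex then marks securin and cyclin B for destruction. Most of these genes are transcribed as one programme late in the cycle. The DREAM complex silences them in resting cells through a promoter element called the cell cycle homology region, and the MuvB core with MYBL2 and FOXM1 activates them in cycling cells.

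The promoters of 4 members are shown because they carry the elements of this shared programme and because the genes span the responses measured below. NCAPG passed the test, KIF11 came near the threshold, and CCNB2 and PLK1 lay slightly on the lower side. They were picked after the values were seen. The sequences are the 250 bases before the RefSeq start, from RefSeq on GRCh38.p14, read 5′ to 3′ on the plus strand for each of the 4 genes. NCAPG lies at chr4:17810729-17810978, KIF11 at chr10:92592880-92593129, CCNB2 at chr15:59104896-59105145 and PLK1 at chr16:23678639-23678888. Capitals mark TTTGAA or TTCGAA, the cell cycle homology region, and CCAAT, the CCAAT box, each searched on both strands (TTCAAA and ATTGG are their reverse forms).
NCAPG: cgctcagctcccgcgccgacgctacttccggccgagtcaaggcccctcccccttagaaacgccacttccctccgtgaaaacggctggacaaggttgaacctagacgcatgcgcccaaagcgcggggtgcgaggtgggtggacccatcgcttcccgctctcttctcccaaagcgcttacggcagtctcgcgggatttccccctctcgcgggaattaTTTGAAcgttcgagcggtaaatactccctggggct
KIF11: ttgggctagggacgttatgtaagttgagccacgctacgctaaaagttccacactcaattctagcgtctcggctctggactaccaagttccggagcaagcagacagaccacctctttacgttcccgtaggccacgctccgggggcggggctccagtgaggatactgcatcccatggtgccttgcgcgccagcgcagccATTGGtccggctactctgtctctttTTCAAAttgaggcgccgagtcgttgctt
CCNB2: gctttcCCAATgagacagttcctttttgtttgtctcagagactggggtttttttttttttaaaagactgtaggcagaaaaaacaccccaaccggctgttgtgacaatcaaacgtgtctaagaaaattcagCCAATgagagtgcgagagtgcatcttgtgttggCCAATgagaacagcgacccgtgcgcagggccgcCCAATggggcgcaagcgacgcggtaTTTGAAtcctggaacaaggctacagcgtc
PLK1: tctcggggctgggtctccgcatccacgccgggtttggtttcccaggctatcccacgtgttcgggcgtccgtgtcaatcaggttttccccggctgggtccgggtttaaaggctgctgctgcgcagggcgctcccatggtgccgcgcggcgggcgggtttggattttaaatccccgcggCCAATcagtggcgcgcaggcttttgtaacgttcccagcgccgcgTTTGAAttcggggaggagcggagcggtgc
The homology letters begin 35 bases before the start in NCAPG, 28 in KIF11, 29 in CCNB2 and 29 in PLK1. CCNB2 holds 4 CCAAT boxes in this window, PLK1 and KIF11 hold 1 each, and the NCAPG window holds none.

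The promoter table held 41 of the 49 members, and AURKA, TTK, BIRC5, BUB3, UBE2C, TPX2, RACGAP1 and FOXM1 were not among them. Within the 250 bases before the start, TTTGAA or TTCGAA stood in 24 of the 41 (58.5%), against 14.3% of all 35116 promoters in the table. CCAAT stood in 29 of the 41 (70.7%), against 32.0% of all promoters. The 2 motifs were counted separately, and the table of all promoters also includes noncoding genes. The median log2 fold change between PIG-LONA and PIG-EMPTY was 0.041 for the 24 members with the homology letters and 0.045 for the 17 without, and these medians were nearly equal.

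Expressed per exon length, the levels of the members spanned a wide range (mean of the 4 libraries, CPM per kb of exon). CPM is the count scaled to a common library size with TMM factors. The length is that of all annotated exons of a gene joined, not of the transcript expressed, so the ranking depends on the annotation. The anaphase activator CDC20 was the highest at 111, followed by the CDK1 adaptor CKS2 at 108 and UBE2C, the ubiquitin-conjugating enzyme of the anaphase promoting complex, at 96.9. DNA topoisomerase TOP2A stood at 90.2 and the condensin ATPase SMC4 at 79.7. At the low end, CDC25C stood at 4.19, separase (ESPL1) at 9.37 and the central spindle kinesin KIF23 at 11.4. In counts, the 47 members of at least 10 CPM had between 406 and 26240 reads per library, and their median level was 125 CPM.

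A pair of members stood far below the rest. NUSAP1, a microtubule-bundling protein of the spindle, had 34 and 35 raw counts in the control libraries and 20 and 47 with LONA. PRC1, which bundles the central spindle, had 22 and 40 in the controls and 29 and 49 with LONA. Both genes share much of their exon sequence with another annotated gene on the same strand, 62.2% of the exon bases of NUSAP1 with AC087721.2 and 57.6% of those of PRC1 with AC068831.7 (GENCODE release 29). AC087721.2 had 0 counts in every library and AC068831.7 had between 354 and 592. How reads that fit both genes were counted is not given in the sources used here, and its part in the low values was not tested. BUB1B and CENPA share 10.2% and 6.96% of their exon bases with BUB1B-PAK6 and SLC35F6, and 18 members have an exon overlapped on the other strand, among them NCAPG with LCORL. Reads of such pairs can be told apart only if the counting used the strand. Pseudogene or retrogene copies were looked up by symbol, with those on chromosome 8 left out. PTTG3P, a copy of PTTG1, was thus not counted. Of the 27 copies looked up, 24 had under 1% of the counts of their member. The largest shares among the 27 were 4.85% for UBE2CP5 against UBE2C and 2.06% for CKS1BP3 against CKS1B.

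**Figure D1:**
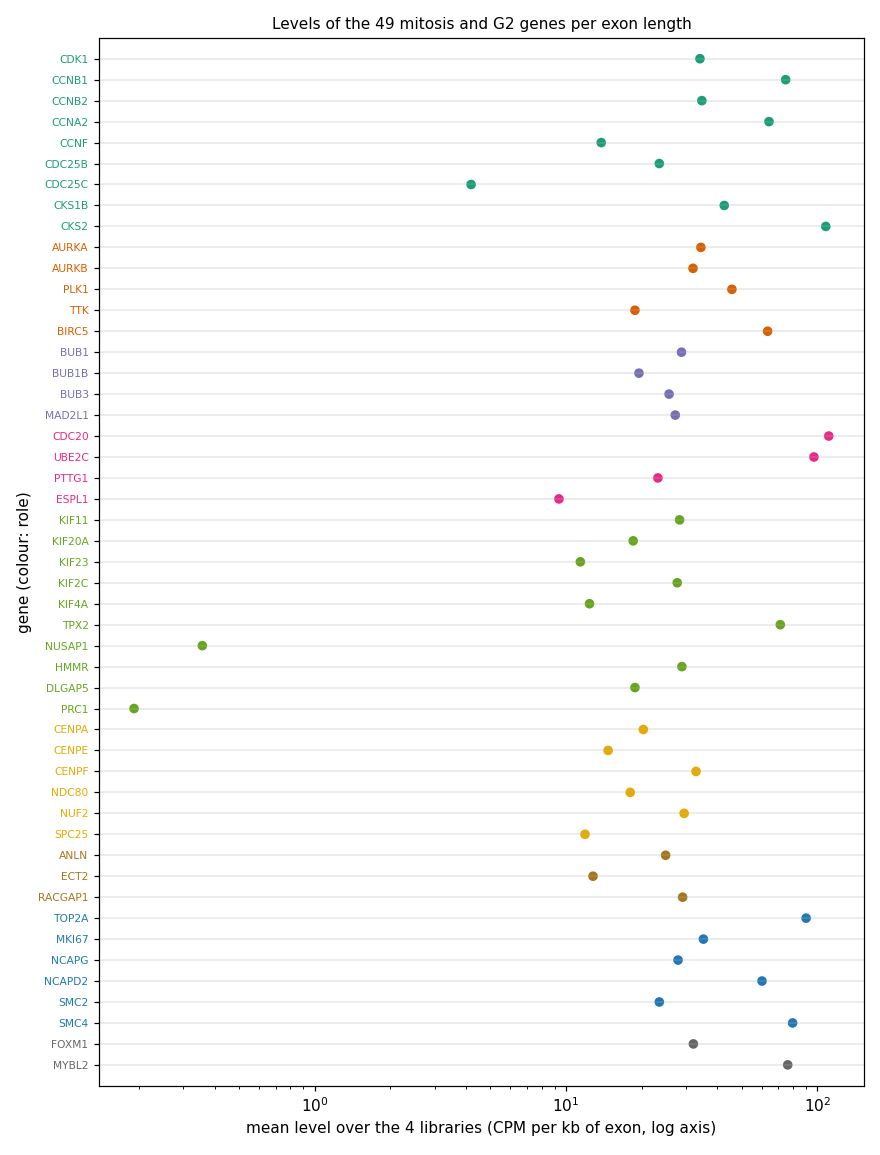
Mean level of each of the 49 genes over the 4 libraries, in CPM per kb of exon on a log axis, with gene names coloured by role. CDC20 (111) and CKS2 (108) lie at the top, and NUSAP1 and PRC1 lie apart from all other members at under 1.

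PIG-LONA and PIG-EMPTY cells differed little in these genes. Of the 49 members, 2 rose, 0 fell and 47 did not pass the test (edgeR's quasi-likelihood test, with p under 0.05 after Benjamini-Hochberg adjustment over 15918 genes). The genes that rose were TTK and NCAPG. The 2 are 4.08% of the members, against 2.93% of all tested genes called higher, 3.51% called lower and 6.44% in either direction, so the share of calls lay near the background. At an unadjusted p under 0.05 11 members (22.4%) were higher, against 9.23% of all tested genes, and 0 were lower. Of the 15918 tested genes, 2971 passed that level in either direction, and 1470 of these were higher. After adjustment, the DESeq2 Wald test called 0 members higher and 0 lower. A gene that did not pass is not thereby shown to be equal between the groups. In bulk RNA a smaller or larger share of cells in G2 and M phase cannot be told apart from less or more of these RNAs per cell.

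The direction of the small differences was uneven. The log2 fold change was above 0 in 37 of 49 members (75.5%), against 50.4% of all tested genes, with a median of 0.040 for the members and 0.001 for all genes. Both PIG-LONA libraries lay above both PIG-EMPTY libraries in 20 members (40.8%, against 23.7% of all tested genes) and below them in 6 (12.2%, against 24.4%). In the other 23 members the groups overlapped. The shares of all tested genes, here and elsewhere, are not matched for level. At least 10 CPM was reached by 47 of the 49 members but by 9352 of the 15918 tested genes, whose median log2 fold change was 0.006. The bearing of level on these shares was not tested. Over all alternative settings the number of members above 0 ran from 32 to 41. Among the 47 members of at least 10 CPM the log2 fold change ran from -0.08 (AURKA) to 0.19 (TTK), and the median size of the difference, without its sign, was 0.053, against 0.058 over the 9352 genes of that level. Of the 47 members that did not pass, 44 had a 95% interval of the difference within 0.32 on the log2 scale in either direction. The exceptions were CDC25C, NUSAP1 and PRC1. The intervals of the called members also lay within 0.32, from 0.09 to 0.28 for TTK and from 0.07 to 0.24 for NCAPG. This bound therefore does not separate members that passed from those that did not, and it does not show that a member was unchanged.

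**Figure D2:**
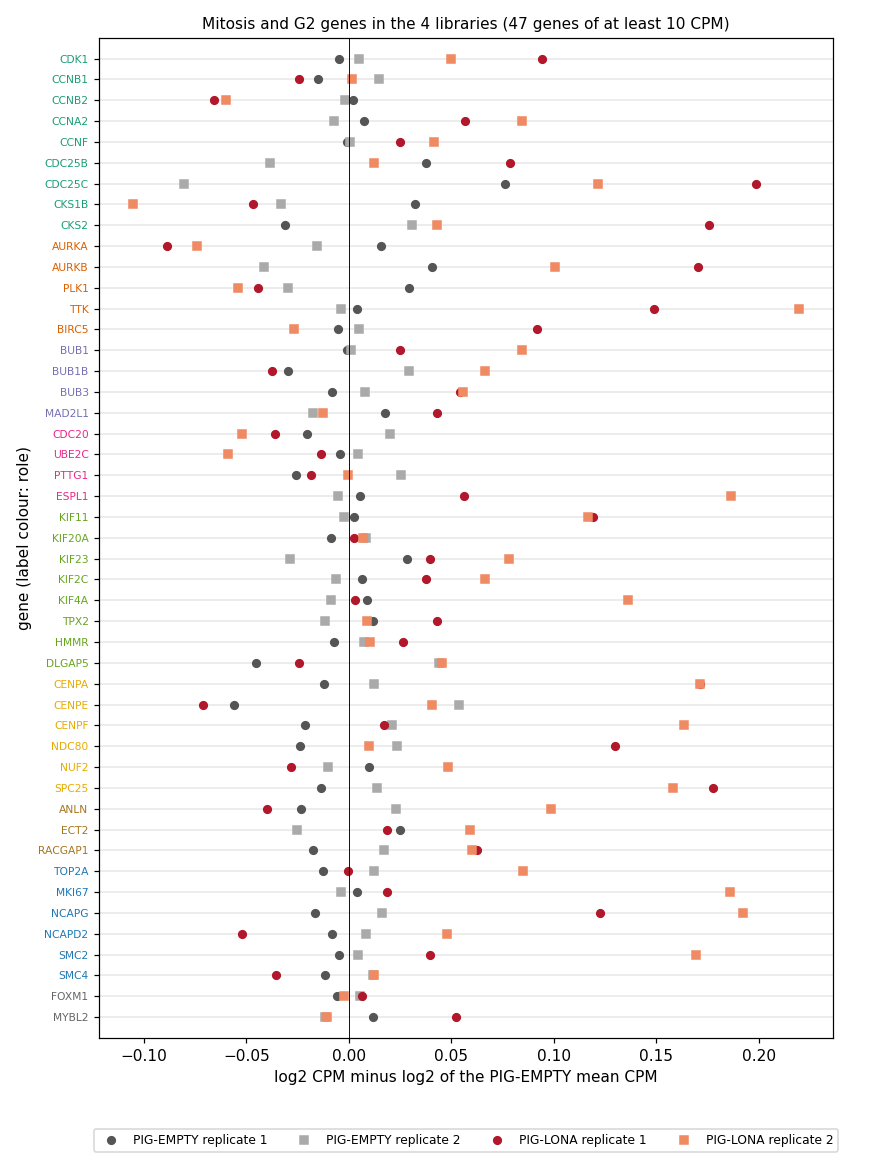
Level of each of 47 genes in each of the 4 libraries, as log2 CPM minus the log2 of the PIG-EMPTY mean, with circles for replicate 1, squares for replicate 2, grey for PIG-EMPTY and red or orange for PIG-LONA. TTK, NCAPG, KIF11, CENPA and SPC25 are among the 20 genes with both PIG-LONA points to the right of both PIG-EMPTY points. The 6 genes with both to the left are AURKA, PLK1, CCNB2, CKS1B, CDC20 and UBE2C.

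TTK encodes MPS1, the kinase that starts spindle checkpoint signalling at unattached kinetochores (chromosome 6, 80003887 to 80042527, plus strand, GRCh38). It stood at 80.9 and 80.5 CPM in the PIG-EMPTY libraries and at 89.4 and 94.0 CPM in the PIG-LONA libraries. Both PIG-LONA values lay above both controls, and the step between the groups was larger than the spread within either. The log2 fold change was 0.19 ± 0.04 (SE, n = 2 per group), or 1.14-fold (edgeR adjusted p = 0.0114). TTK is the 1 member on chromosome 6, whose genes were higher as a whole in PIG-LONA by a median of 0.17 (log2) over the other chromosomes. With that shift removed from each library, its log2 fold change was 0.01 (edgeR adjusted p = 0.931).

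NCAPG encodes a non-SMC subunit of condensin I, the ring complex that compacts chromosomes for division (chromosome 4, 17810902 to 17844862, plus strand). Its promoter is the first of the 4 sequences above. The level was 128 and 131 CPM in PIG-EMPTY and 141 and 148 CPM in PIG-LONA. The groups did not overlap, and the log2 fold change was 0.16 ± 0.04 (SE), or 1.12-fold (edgeR adjusted p = 0.0195). Leaving out PIG-EMPTY replicate 1 ended both calls, with edgeR adjusted p of 0.11 for TTK and 0.277 for NCAPG, and so did leaving out PIG-EMPTY replicate 2, at 0.174 and 0.162. They were also lost with the DESeq2 Wald test (adjusted p = 0.0535 and 0.0659) and without a filter on low counts (edgeR adjusted p = 0.0709 and 0.0903).

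**Figure D3:**
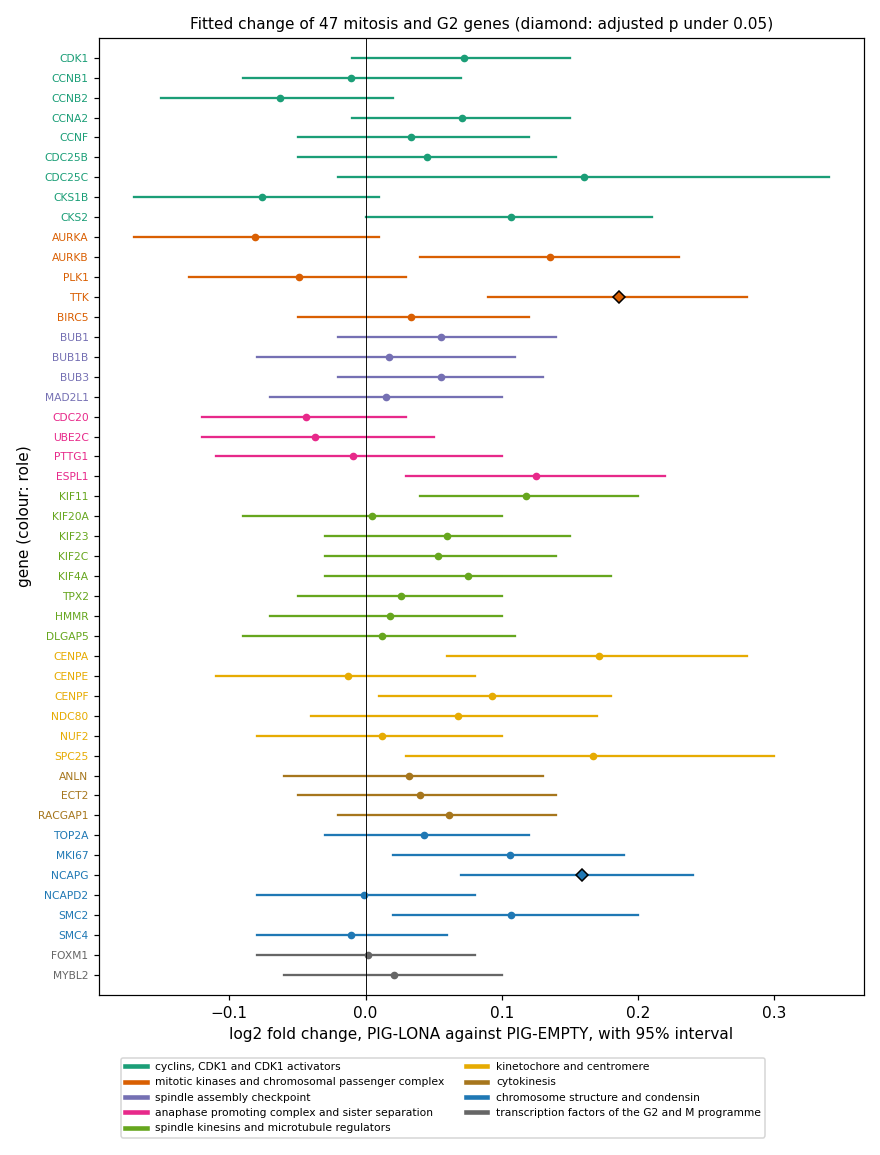
Fitted log2 fold change of 47 genes, PIG-LONA against PIG-EMPTY, with its 95% interval as a line and the role as colour. Diamonds mark TTK (0.19) and NCAPG (0.16), and most intervals include 0.

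The CDK1 engine itself was nearly level between the groups. CDK1 stood at 130 and 131 CPM in PIG-EMPTY and at 139 and 135 CPM in PIG-LONA, so the groups did not overlap, but the log2 fold change of 0.07 ± 0.04 did not pass (edgeR adjusted p = 0.351). CCNB1, the main mitotic cyclin, stood at 190 and 194 CPM against 189 and 192 CPM and overlapped (log2 fold change -0.01, 95% interval -0.09 to 0.07). The other B cyclin, CCNB2, was on the lower side at 99.3 and 99.1 against 94.8 and 95.2 CPM. Its groups did not overlap, and it did not pass (edgeR adjusted p = 0.455). CCNA2, which acts from S phase into prophase, was on the higher side at 176 and 174 against 182 and 186 CPM. CCNF, a cyclin that serves as a ubiquitin ligase subunit rather than a CDK partner, had a log2 fold change of 0.03.

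The CDK1 activators and adaptors went in both directions without a call. CDC25C stood at 13.9 and 12.5 CPM in PIG-EMPTY and at 15.2 and 14.4 CPM in PIG-LONA (log2 fold change 0.16, 95% interval -0.02 to 0.34). It had the fewest reads after NUSAP1 and PRC1, and its interval was the widest of the 47 genes shown. CDC25B, at 102 and 97.0 against 105 and 100 CPM, overlapped. The small CDK1-binding proteins pointed opposite ways: CKS2 stood at 62.3 and 65.1 against 71.9 and 65.6 CPM, and CKS1B at 105 and 100 against 99.1 and 95.1 CPM. Most of the difference in CKS2 came from PIG-LONA replicate 1.

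Among the mitotic kinases the Aurora pair pointed in opposite directions. AURKB, the kinase of the chromosomal passenger complex, stood at 70.2 and 66.3 CPM in PIG-EMPTY and at 76.8 and 73.2 CPM in PIG-LONA. Its groups did not overlap, and it did not pass (log2 fold change 0.14 ± 0.05, edgeR adjusted p = 0.105). AURKA, the spindle pole kinase, was at 105 and 102 against 97.4 and 98.4 CPM, with both PIG-LONA values below both controls (log2 fold change -0.08 ± 0.04, edgeR adjusted p = 0.306). PLK1, which acts at centrosomes, kinetochores and the midbody, likewise lay lower in both PIG-LONA libraries, at 226 and 217 against 214 and 213 CPM, a log2 fold change of -0.05 ± 0.04. BIRC5, which encodes survivin of the passenger complex, stood at 238 and 240 against 255 and 235 CPM, so the PIG-LONA libraries lay on either side of the controls. Whether AURKB and AURKA differ from each other in their response was not tested.

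TTK, counted here with the mitotic kinases, also belongs to the spindle checkpoint and is described above. The other 4 checkpoint genes had log2 fold changes between 0.01 and 0.06, with 0 calls. BUB3, the checkpoint adaptor, stood at 208 and 211 CPM in PIG-EMPTY and at 218 and 218 CPM in PIG-LONA. BUB1B, which encodes BUBR1, a part of the inhibitor of the anaphase promoting complex, overlapped at 85.1 and 88.6 against 84.6 and 90.9 CPM. The kinase gene BUB1 and MAD2L1, which encodes the CDC20-binding inhibitor MAD2, had log2 fold changes of 0.06 and 0.01. The spread within PIG-LONA was as large as or larger than the step between groups in BUB1B and MAD2L1.

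Downstream of the checkpoint, 0 of the 4 genes of the anaphase promoting complex and sister separation passed. Their summed level was 479 and 487 CPM in PIG-EMPTY and 479 and 481 CPM in PIG-LONA, so the groups overlapped, and the median log2 fold change was -0.023. CDC20 stood at 227 and 234 CPM in PIG-EMPTY and at 225 and 222 CPM in PIG-LONA (log2 fold change -0.04 ± 0.04, edgeR adjusted p = 0.573). UBE2C, at 126 and 127 against 125 and 121 CPM, also had both PIG-LONA libraries below both controls. PTTG1, which encodes securin, overlapped at 46.0 and 47.6 against 46.2 and 46.8 CPM. Separase, the protease that securin restrains, was on the higher side. ESPL1 stood at 80.1 and 79.5 against 82.9 and 90.8 CPM (edgeR adjusted p = 0.138, log2 fold change 0.13 ± 0.05). PIG-LONA replicate 2 held most of the ESPL1 difference.

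Of 10 spindle kinesins and microtubule regulators, 0 passed and 9 had a log2 fold change above 0. KIF11, the motor that pushes spindle poles apart, came nearest. It stood at 132 and 132 CPM in PIG-EMPTY and at 143 and 143 CPM in PIG-LONA, so the libraries of each group were almost equal while the groups stood apart (log2 fold change 0.12 ± 0.04, edgeR adjusted p = 0.0787). TPX2, the activator of Aurora A on the spindle, was at 257 and 252 against 262 and 256 CPM and overlapped. The kinesin KIF20A (0.00), the spindle factors HMMR (0.02) and DLGAP5 (0.01), the depolymerase KIF2C (0.05), KIF23 (0.06) and the chromokinesin KIF4A (0.07) all had log2 fold changes of under 0.1. For NUSAP1 and PRC1, at around 1 CPM, the 95% intervals ran from -0.80 to 0.44 and from -0.42 to 0.81, and a difference of the size seen in TTK was not detectable at this depth.

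Kinetochore and centromere genes had the highest median of the groups, 0.080, and 5 of 6 were above 0, with no call. CENPA, the histone H3 variant that marks centromeres, stood at 37.5 and 38.1 CPM in PIG-EMPTY and at 42.6 and 42.6 CPM in PIG-LONA, and came close to the threshold (log2 fold change 0.17 ± 0.05, 1.13-fold, edgeR adjusted p = 0.0572). SPC25, a subunit of the NDC80 complex that grips microtubules, was at 20.5 and 20.8 against 23.4 and 23.0 CPM (log2 fold change 0.17 ± 0.07, edgeR adjusted p = 0.158). In both genes the groups were well apart relative to the spread within them. The partners of SPC25 in the same complex, NDC80 (0.07) and NUF2 (0.01), overlapped between groups. CENPF, a large kinetochore protein of G2 and M phase, stood at 367 and 378 against 377 and 417 CPM, where replicate 2 of PIG-LONA stood alone. The motor CENPE had a log2 fold change of -0.01.

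The 3 cytokinesis genes had log2 fold changes between 0.03 and 0.06, with 0 calls. The contractile ring scaffold ANLN stood at 146 and 150 CPM in PIG-EMPTY and at 144 and 158 CPM in PIG-LONA, and the RhoA activator ECT2 at 70.7 and 68.3 against 70.4 and 72.4 CPM. Both overlapped between groups. RACGAP1, the centralspindlin partner of KIF23, had both PIG-LONA libraries above both controls, at 126 and 129 against 133 and 133 CPM (log2 fold change 0.06 ± 0.04, edgeR adjusted p = 0.444).

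Among the 6 chromosome structure genes, NCAPG rose and its partners did not pass. SMC2, an ATPase of both condensins, stood at 146 and 147 CPM in PIG-EMPTY and at 150 and 164 CPM in PIG-LONA (log2 fold change 0.11 ± 0.04, edgeR adjusted p = 0.168). SMC4, its dimer partner, was at 671 and 682 against 660 and 682 CPM and overlapped. NCAPD2, another condensin I subunit, overlapped as well, at 388 and 393 against 377 and 404 CPM. MKI67, the proliferation marker that coats mitotic chromosomes, stood at 435 and 433 against 440 and 494 CPM (edgeR adjusted p = 0.170, log2 fold change 0.11 ± 0.04). TOP2A stood at 567 and 577 against 572 and 607 CPM. In SMC2, MKI67 and TOP2A most of the difference lay in PIG-LONA replicate 2.

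The activators of the programme were flat. FOXM1, the forkhead factor of G2 genes, stood at 156 and 158 CPM in PIG-EMPTY and at 158 and 157 CPM in PIG-LONA, with a 95% interval of the log2 fold change from -0.08 to 0.08. MYBL2, the MYB factor that joins MuvB, stood at 212 and 208 against 218 and 209 CPM, with an interval from -0.06 to 0.10. In both genes the groups overlapped.

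A second list of 108 other G2 and M genes, all of them tested, gave a like picture with somewhat more calls. Of the 108, 8 rose (7.41%, against 2.93% of all tested genes), 0 fell and 100 did not pass, with a median log2 fold change of 0.069. Both PIG-LONA libraries lay above both controls in 58 of the 108 (53.7%, against 23.7%) and below them in 8 (against 24.4% of all tested genes). The minus-end kinesin KIFC1 rose from 106 and 101 to 131 and 126 CPM (log2 fold change 0.31 ± 0.04, edgeR adjusted p = 8.48e-05). FBXO5, which encodes EMI1, the inhibitor of the anaphase promoting complex before mitosis, rose from 64.5 and 59.7 to 76.9 and 76.6 CPM (0.31 ± 0.05, edgeR adjusted p = 0.000337). Both lie on chromosome 6. With its shift removed the log2 fold changes were 0.14 for KIFC1 (edgeR adjusted p = 0.0596) and 0.13 for FBXO5 (0.109), and neither passed.

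The remaining 6 lie on other chromosomes. NCAPG2, a subunit of condensin II, rose from 184 and 182 to 208 and 212 CPM (0.20 ± 0.04, edgeR adjusted p = 0.0019). The kinesin KIF20B rose by 0.19 ± 0.04, the centromere genes CENPU by 0.19 ± 0.05 and CENPI by 0.30 ± 0.07, the cytokinesis kinase CIT by 0.17 ± 0.04 and CDCA5, which encodes the cohesion factor sororin, by 0.15 ± 0.04. All 13 other condensin and cohesin genes had log2 fold changes above 0, with 2 calls and a median of 0.076. For comparison, 84.3% of the 108 and 50.4% of all tested genes were above 0, and 7.41% and 2.93% were called higher. Of the 10 DREAM complex and pocket protein genes 0 passed, and their median was 0.070. Leaving out PIG-EMPTY replicate 1 or 2 made the count of 8 genes 5 or 3, and leaving out PIG-LONA replicate 1 or 2 made it 29 or 17. The DESeq2 Wald test called 4 of the 108, a fit without the low-count filter 3, removal of the chromosome 6 shift left 5, and removal of a trend on GC content and length gave 16. Besides KIFC1 and FBXO5, the call lost with the chromosome 6 shift removed was CDCA5 on chromosome 11, whose log2 fold change stayed at 0.15 while its edgeR adjusted p went from 0.0433 to 0.0507.

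Genes of the preceding phase of the cycle are given for scale. Of 31 DNA replication genes 12 were higher (38.7%) and 0 lower, against 2.93% and 3.51% of all tested genes. Their median log2 fold change was 0.123, against 0.040 for the mitosis and G2 genes and 0.001 for all tested genes. MCM3 had the largest, 0.33, and lies on chromosome 6, whose genes were higher as a whole. How these 12 calls depend on that shift or on other settings is not given here. The difference between these lists was not tested. CDKN1A, which encodes p21, an inhibitor of CDKs that acts upstream of DREAM, fell from a mean of 41.6 to 30.0 CPM (-0.47 ± 0.05 on the log2 scale, edgeR adjusted p = 1.67e-05), although it also lies on chromosome 6. Its part in the values of the mitosis and G2 genes was not tested.

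Library facts bear on all of these values. Total counts ran from 29819572 to 38358442. Of 15 myeloid markers 13 were tested, and 3 were higher and 5 lower. Among all tested genes, 2.93% were called higher and 3.51% lower. The summed level of the 13 markers was 2239 to 2303 CPM in PIG-EMPTY and 2269 to 2397 CPM in PIG-LONA. Most of that sum is AZU1, ELANE and CEBPA, with means of 620, 507 and 432 CPM over the 4 libraries. It therefore says little about the other markers. Of the 8 called markers, 6 had a larger log2 fold change in size than TTK, and SPI1 and AZU1 a smaller one. ITGAM (9.59 to 5.18 CPM, 0.54-fold), CSF1R (6.62 to 3.46 CPM, 0.53-fold), LYZ (43.5 to 26.6 CPM, 0.61-fold), CD14 (12.6 to 8.80 CPM, 0.69-fold) and SPI1 (226 to 206 CPM) fell, and FLT3 (37.2 to 50.5 CPM, 1.36-fold), PRTN3 (156 to 185 CPM) and AZU1 (587 to 653 CPM) rose. Their part in the values of the mitosis and G2 genes was not tested. KIT and CEBPE had at most 10 counts in every library, and MPO was low at 2.69 CPM in PIG-EMPTY. CD3D, CD3E, CD3G, CD2 and MS4A1 of 10 lymphoid markers and HBB, HBA1, HBA2 and AHSP of 8 erythroid markers had 0 counts throughout. The summed levels of tested lymphoid markers (2 genes, 2.11 to 2.99 CPM) and of the single tested erythroid marker EPOR (12.4 to 12.6 CPM) were low in all libraries, as were those of 4 tested stromal markers (8.35 to 9.74 CPM).

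The libraries within each group also differed from each other. Replicate 2 minus replicate 1 ran from -0.13 to 0.17 (log2) in PIG-LONA and from -0.16 to 0.11 in PIG-EMPTY over the 47 members of at least 10 CPM. Summed over the 49 members, the level was 7425 and 7467 CPM in PIG-EMPTY and 7533 and 7734 CPM in PIG-LONA. The groups did not overlap in this sum, but the step from PIG-LONA replicate 1 to replicate 2 exceeded the step from PIG-EMPTY replicate 2 to PIG-LONA replicate 1. The difference between the PIG-LONA libraries went with exon length. Across these 47 members, Pearson's r between log2 exon length and the log2 difference of replicate 2 minus replicate 1 was 0.64 in PIG-LONA and 0.02 in PIG-EMPTY, a description over genes of the same 2 libraries each. Over 9344 genes of that level r was 0.42 in PIG-LONA and 0.08 in PIG-EMPTY. All 13 members with over 6000 nt of exon were higher in PIG-LONA replicate 2, against 5 of the 13 members under 3000 nt. With GC content in place of length, r was -0.24 in PIG-LONA and -0.35 in PIG-EMPTY for the members. Between the group means r was 0.06 with length and -0.15 with GC content.

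**Figure D4:**
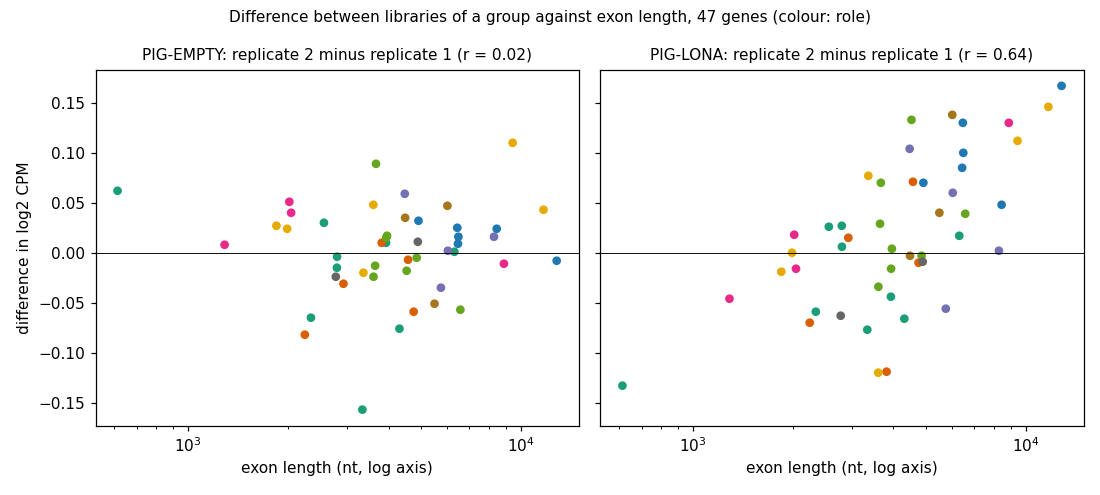
Difference in log2 CPM between replicate 2 and replicate 1 of PIG-EMPTY (left) and PIG-LONA (right) against exon length on a log axis, 1 point per gene for 47 genes, coloured by role. The points scatter around 0 on the left (r = 0.02) and climb with length on the right (r = 0.64).

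Which members were called depended on the library left out. Without PIG-LONA replicate 1 the calls were 11, namely ANLN, CENPA, CENPF, ESPL1, KIF11, KIF4A, MKI67, NCAPG, SMC2, TOP2A and TTK (22.4% of the members, against 7.31% of all genes in that fit). Without PIG-LONA replicate 2 they were 6, AURKB, BIRC5, CKS2, KIF11, NCAPG and TTK (12.2%, against 3.79%). Leaving out PIG-EMPTY replicate 1 or replicate 2 gave 0 (against 1.66% and 0.955% of all genes). With the trend on GC content and length removed from each library, AURKB, CENPA, ESPL1, MKI67, NCAPG and TTK were called higher (12.2%, against 4.25%). With the chromosome 6 shift removed NCAPG alone was called (against 1.4%), and the DESeq2 Wald test (against 1.38%) and the fit without a low-count filter (against 0.473%) called 0. TTK and NCAPG were the calls with DESeq2 size factors, upper-quartile scaling and library totals (against 2.95%, 2.89% and 2.32% of all genes). They were also the calls with limma-voom, a filter at 1 CPM and a replicate block (against 2.85%, 3.6% and 3.13%). No member was called lower under any of these settings.

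**Figure D5:**
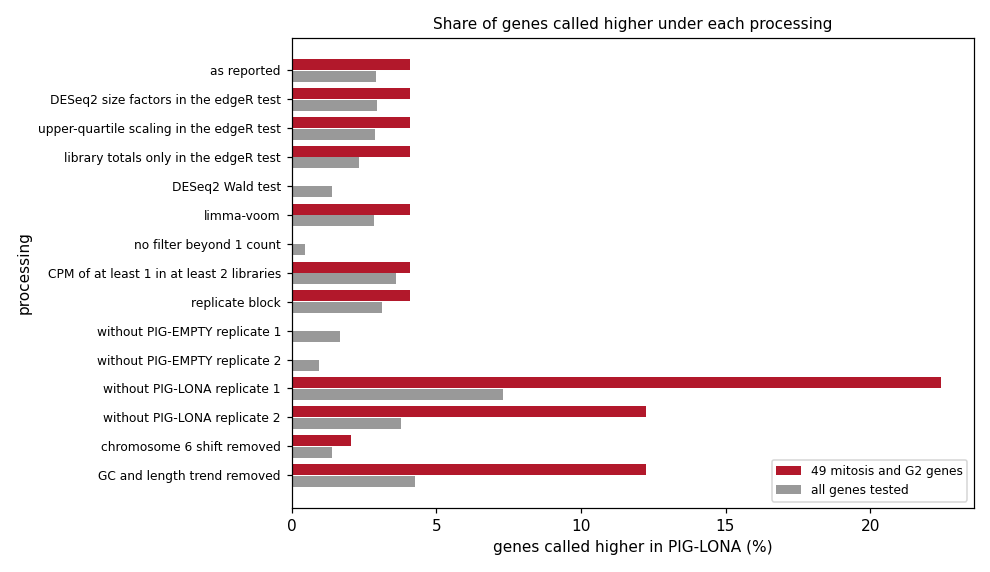
Share of the 49 genes (red) and of all tested genes (grey) called higher in PIG-LONA at adjusted p under 0.05 under each processing, as horizontal bars from 0. The share of the 49 genes is 4.08% as reported, 22.4% without PIG-LONA replicate 1 and 0 without either PIG-EMPTY library.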

How the data were processed

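Poly(A) RNA libraries of 4 cultures were made with a directional kit, per the labels' protocols. Raw read counts of each Ensembl gene were deposited as 1 table with a column per library. Tools named in the submitters' processing notes are HTSeq, STAR 2.5 and FastQC 0.11.4, with build hg38. Annotation release and strand setting: not given in the sources used here. Symbols came from the reference name table for 60357 of 67062 rows. Rows without a symbol held 0.0723% of the counts. Chi-square per gene between replicates was 1.77 (PIG-EMPTY) and 4.32 (PIG-LONA), so no library was merged.

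The test was edgeR 4.0.16 under R 4.3.3 (TMM, filterByExpr with minimum count 10 and total 15, glmQLFit with the legacy form off, glmQLFTest, two-sided) over 15918 genes, with Benjamini-Hochberg adjustment and a threshold of 0.05. It was checked on simulated data. With 2 transductions per group of 1 line, p-values refer to the spread between these cultures only. Each gene has 2 residual degrees of freedom, and the quasi-likelihood fit moderates its variance with that of all tested genes. The p-values, SEs and intervals are thus not the spread of each gene alone. SE is the absolute log2 fold change divided by the square root of F. Levels are TMM-scaled CPM, and exon lengths and coordinates come from GENCODE release 29 (GRCh38). DESeq2 1.42.0, limma 3.58.1 and the other settings were alternatives.

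Members and lists were chosen with earlier results of these data known. Values per library were given, by rule, for called members, the 12 smallest p, the highest and lowest member of each role, and CDK1, CCNB1, PLK1, AURKB, CDC20, FOXM1 and MYBL2. Called genes of the second list (at most 4 per role) and CDKN1A were named by rule. Other genes were named after their values were seen.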

Additional observations from a re-analysis of the deposited data

How the results depend on the processing

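Under the alternatives that kept all 4 libraries, the number of members called higher was 0 with the DESeq2 Wald test, 0 without the low-count filter, 1 with the chromosome 6 shift removed, 6 with the GC and length trend removed, 0 at adjusted p under 0.01 and 4 under 0.1, against 2 as reported. With 1 library left out it ran from 0 to 11. For the other G2 and M genes, the count of 8 was 4 with DESeq2, 3 without the filter, 5 with the chromosome 6 shift removed, 16 with the GC and length trend removed, 4 at 0.01 and 15 at 0.1, and 3 to 29 with 1 library left out. All genes called higher (467) numbered 219 with DESeq2, 140 without the filter, 223 with the chromosome 6 shift removed, 228 at 0.01 and 157 to 1222 with 1 library left out. All genes called lower (558) numbered 254, 194 and 300 with DESeq2, without the filter and at 0.01, and 309 to 1109 with 1 library left out. The cause of these moves was not tested, except that a stricter threshold, more genes tested or fewer libraries are part of those settings. The median of the members ran from 0.026 to 0.051 over all settings, the lowest without PIG-LONA replicate 2. Some members that did not pass changed sign, most of them near 0, and NUSAP1 at few counts. FOXM1 was at -0.0075 with upper-quartile scaling, -0.0043 with library totals and -0.0002 with the CPM filter, and PTTG1 at 0.0143 with the GC and length trend removed. With 1 library left out, the lowest and highest values were -0.0389 and 0.0985 for ANLN, -0.0262 and 0.093 for BIRC5, -0.037 and 0.066 for BUB1B, -0.0248 and 0.0045 for CCNB1, -0.0024 and 0.0086 for FOXM1, -0.0096 and 0.0539 for MYBL2, -0.725 and 0.1415 for NUSAP1, -0.0331 and 0.0176 for PTTG1, -0.0344 and 0.0129 for SMC4. With the replicate number as a block, 2 members, TTK and NCAPG, were called, as without it. The 2 pairs share only a number, and the correlation of same-numbered deviations over 9352 genes was 0.0965. In a fit that leaves out 1 library, the lone library is assumed to vary like the other group.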
